A study of Mus musculus with 5 samples.

Results

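Transcripts of 8 megakaryocyte and platelet genes (Pf4, Ppbp, Itga2b, Itgb3, Gp1bb, Gp6, Gp9 and Treml1) were followed in mouse RNA-seq libraries of erythroid cells. The genes were taken by symbol from tables of 39179 genes, and each of the 8 had 1 row. The spleen libraries were made from polyA RNA of cells selected with magnetic beads for CD71, 2 from mice whose skin was exposed to 50 mJ/cm2 of UVB light (UVB) and 2 from mice bearing subcutaneous B16 melanoma, a transplantable mouse tumor line (tumor). They were set against 1 library of CD71-selected bone marrow cells from untreated mice (control). CD71 is the transferrin receptor, which dividing cells of other lineages carry as well. The strain is labelled C57BL/6 for the UVB libraries, C57BL/7 and C57BL/8 for tumor 1 and 2, and C57BL/6 for the control. Ages, the time after treatment and the number of animals in a library are not given in the labels, so p-values measure only the spread between these libraries, which may be technical. No spleen library of untreated mice was analysed here, so organ and treatment cannot be told apart in either comparison with the control.

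Megakaryocytes share a progenitor with red cells and need the transcription factors Gata1, Nfe2, Gfi1b and Tal1, which erythroid cells also use. As they mature they make the adhesion receptors and granule proteins that platelets carry into the blood. Platelets bind von Willebrand factor through the glycoprotein Ib-IX-V complex, collagen through glycoprotein VI and fibrinogen through the integrin of Itga2b and Itgb3, and they release the chemokines Pf4 and Ppbp from their alpha-granules. Mature platelets have no nucleus but keep messenger RNA from the megakaryocyte.

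The regions before the RefSeq start sites of 4 of the 5 genes with enough reads to be tested are shown because GATA and ETS factors control promoters of this lineage. Each sequence gives the 250 bases before the start on GRCm38.p6, 5′ to 3′ on the gene's strand. Capitals mark the letters GATAA, a core bound by GATA factors, and GGAAG, a core bound by ETS factors, on either strand, so that CTTCC in capitals is GGAAG on the other strand. Other forms of these sites were not marked. Windows were found for 7 of the 8 genes.
Gp9, chr6:87777820-87778069, plus strand: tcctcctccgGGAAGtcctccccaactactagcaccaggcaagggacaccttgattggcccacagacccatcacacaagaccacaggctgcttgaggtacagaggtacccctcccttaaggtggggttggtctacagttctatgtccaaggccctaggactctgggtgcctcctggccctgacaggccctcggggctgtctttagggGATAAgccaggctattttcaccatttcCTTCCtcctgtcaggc
Itga2b, chr11:102469884-102470133, minus strand: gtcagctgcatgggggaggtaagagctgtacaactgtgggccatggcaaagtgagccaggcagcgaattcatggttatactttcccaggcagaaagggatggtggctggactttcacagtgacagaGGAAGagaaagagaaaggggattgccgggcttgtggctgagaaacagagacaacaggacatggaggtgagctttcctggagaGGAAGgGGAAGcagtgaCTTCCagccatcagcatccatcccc
Pf4, chr5:90772185-90772434, plus strand: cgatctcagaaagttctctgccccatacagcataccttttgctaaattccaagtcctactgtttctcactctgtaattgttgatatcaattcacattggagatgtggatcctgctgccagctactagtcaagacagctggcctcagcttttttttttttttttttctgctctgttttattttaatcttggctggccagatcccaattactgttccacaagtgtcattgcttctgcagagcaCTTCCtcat
Ppbp, chr5:90768268-90768517, plus strand: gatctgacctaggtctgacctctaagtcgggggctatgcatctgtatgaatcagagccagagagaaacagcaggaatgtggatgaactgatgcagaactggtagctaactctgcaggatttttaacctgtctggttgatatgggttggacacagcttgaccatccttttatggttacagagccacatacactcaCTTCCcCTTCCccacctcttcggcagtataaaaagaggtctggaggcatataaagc
Of these 4 sequences, that of Gp9 holds GATAA, with its first base 43 bases before the start. Pf4 has GATAA from base 38 after its start, outside the letters shown. GGAAG occurs in all 4 sequences, at 4 places in that of Itga2b. No base shown belongs to more than 1 match. Over windows of 300 bases around all 32851 listed starts, 25.4% hold GATAA and 71.4% hold GGAAG on either strand. A match here describes the letters and is no evidence of binding.

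Libraries held 5003923 to 5921270 reads in genes, and 1 read was worth 0.168 to 0.198 counts-per-million units (CPM). Intervals based on reads cover counting error only. The summed level of 10 erythroid markers, all detected in every library, was 3680 and 3406 CPM in UVB, 3470 and 3164 CPM in tumor and 3177 CPM in control libraries. The tumor libraries lay further apart (11.4% of 15006 tested genes over 2-fold, 1703 genes) than the UVB libraries did (1.85%, 278 genes). Marker lists of other cells were also present. Summed macrophage markers (9 genes) were at 2097 to 2351 CPM in UVB, 929 and 1342 CPM in tumor and 1887 CPM in control libraries. B cell markers (5 genes) were at 1029 to 1115 CPM in UVB, 295 to 797 CPM in tumor and 687.5 CPM in control libraries, and monocyte markers (5 genes) at 607 to 705 CPM in UVB, 292 to 444 CPM in tumor and 423 CPM in control libraries. Csf1r made up most of the monocyte sum (576 and 504.5 CPM in UVB, 263 and 400 CPM in tumor and 262 CPM in control libraries), and 3 of the 5 markers in UVB and 4 in tumor libraries had a log2 fold change below 0 against control (median -0.44 and -1.68). Neutrophil markers (9 genes) were at 58.0 to 78.4 CPM in UVB, 40.2 to 114 CPM in tumor and 941 CPM in control libraries, with Ly6g at 0 reads in both UVB and Elane at 0 reads in both tumor libraries. Endothelial markers (8 genes) were at 238 to 244 CPM in UVB, 94.9 to 201.5 CPM in tumor and 226 CPM in control libraries, with Tek and Emcn at 0 reads in both UVB libraries. Pecam1 made up most of the endothelial sum (212 and 214 CPM in UVB, 59.8 and 148 CPM in tumor and 125 CPM in control libraries), and 6 of the 8 markers in UVB (median log2 fold change -2.63, 2 called) and all 8 in tumor libraries (median -1.13, 1 called) were below 0 against control. Progenitor markers (6 genes) were at 37.7 to 62.8 CPM in UVB, 91.3 to 127 CPM in tumor and 127 CPM in control libraries. Stromal markers (5 genes) were at 1.80 to 2.53 CPM in UVB, 2.86 to 3.83 CPM in tumor and 705 CPM in control libraries. T cell markers (6 genes) and mast cell, basophil and eosinophil markers (6 genes) summed to at most 38.0 CPM in every library.

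The 8 genes together gave 77.9 and 68.1 CPM in UVB, 75.4 and 60.8 CPM in tumor and 92.7 CPM in control libraries, most of it from Itga2b, Itgb3 and Gp9. The other 5 genes (Pf4, Ppbp, Gp1bb, Gp6 and Treml1) were the lowest in CPM and summed to 4.56 to 10.6 CPM in UVB, 6.97 and 8.38 CPM in tumor and 8.78 CPM in control libraries. In bulk libraries, fewer cells of a type and less RNA per cell cannot be told apart.

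Per exon length, in recovered reads per kilobase of exon scaled to depth as CPM are (RPKM), Gp9 stood above the other 7 genes in every library. It was at 18.8 and 17.6 in UVB, 16.2 and 10.5 in tumor and 28.7 in control libraries, against a median of tested genes in the same libraries between 8.04 and 9.27. Itga2b was at 5.46 and 5.30 in UVB, 9.01 and 5.88 in tumor and 5.89 in control libraries on the same scale. Itgb3 was at 3.56 and 3.23 in UVB, 0.848 and 1.88 in tumor and 4.49 in control libraries. Pf4, at 3.603 and 3.98 in UVB, 2.23 and 3.28 in tumor and 5.85 in control libraries, lay below Itga2b and above Itgb3 in each library, by little in UVB 1 for Itgb3 and in the control for Itga2b. Ppbp lay between 1.40 and 6.09, and its order against these 3 genes changed from library to library. Treml1, Gp1bb and Gp6 never exceeded 0.52. For scale, the erythroid transcription factor gene Klf1 was at 123 and 121 in UVB, 142 and 125 in tumor and 115 in control libraries per exon length.

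**Figure D1:**
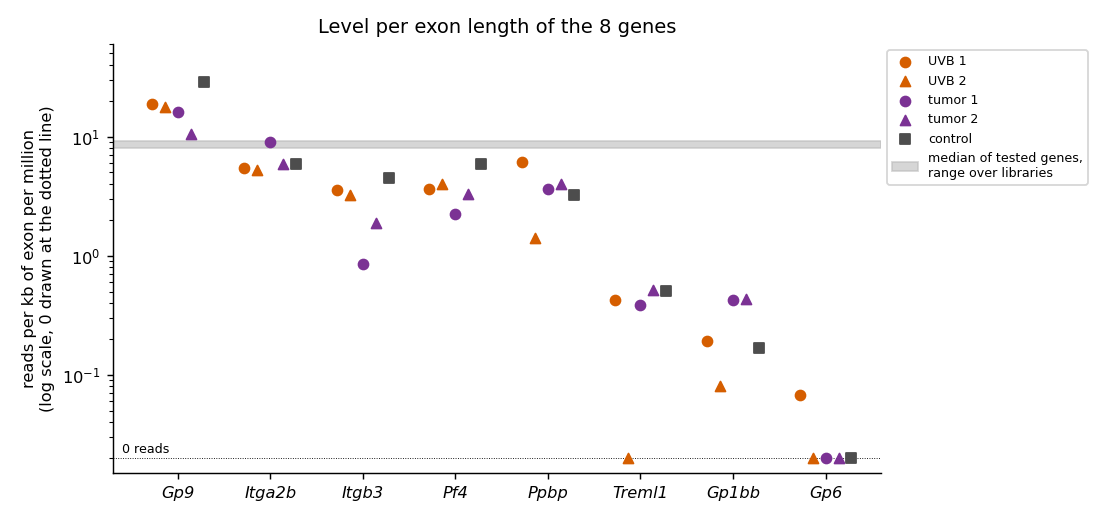
RPKM, recovered reads per kilobase of exon scaled to depth (log scale), for the 8 genes in each library, with the range of the median of tested genes as a grey band. Gp9 lies above the band in all 5 libraries, and Treml1, Gp1bb and Gp6 lie at or below 0.52.

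Of the 8 genes, 5 (Itga2b, Itgb3, Gp9, Pf4 and Ppbp) had a mean of at least 1 CPM and were tested with limma in 1 fit of the 5 libraries on log2(CPM + 1), with Benjamini-Hochberg adjustment over 15006 genes. None of the 5 passed an adjusted p of 0.05 in any comparison. In UVB against control, 0 of 5 were called, against 2.33% of all genes tested. An unadjusted p under 0.05 was reached by 0 of 5, against 2276 of the 15006 genes. In tumor against control, 0 of 5 were called, against 3.79% of genes. There, 2 of 5 (Itgb3 and Gp9) had an unadjusted p under 0.05, against 3680 of the 15006 genes. In UVB against tumor, 0 of 5 were called, against 17.0% of genes. Here 1 of 5 (Itgb3) had an unadjusted p under 0.05, against 6326 of the 15006 genes. The edgeR quasi-likelihood test on recovered reads also called 0 of the 5 in each comparison. At an unadjusted p under 0.05 it gave the same counts of the 5. Both comparisons with bone marrow rest on the same control library, which has no spread of its own. Both UVB libraries lay below it for 4 of the 5 genes, against 47.9% of all genes tested, and above it for 0, against 34.8%. Both tumor libraries lay below it for 3, against 37.9%, and above it for 1 (Ppbp), against 39.3%. Both UVB libraries lay above both tumor libraries for 3 genes (Pf4, Itgb3 and Gp9), against 34.8% of all genes tested, and below them for 1 (Itga2b), against 38.4%. The median log2 fold change of the 5 genes was -0.39 for UVB against control, -0.78 for tumor against control and 0.32 for UVB against tumor, beside -0.061, -0.011 and -0.015 over all genes tested.

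Itga2b and Itgb3 encode the alpha and beta chains of the fibrinogen receptor, through which platelets aggregate. Itga2b (ENSMUSG00000034664, chromosome 11, 102453297 to 102470122 on GRCm38, minus strand) is also transcribed in early blood progenitors and is known there as CD41. It had 29.7 and 28.9 CPM in UVB 1 and 2, 48.96 and 32.0 CPM in tumor 1 and 2, and 32.1 CPM in the control library. Only tumor 1 stood apart, and tumor 2 lay within 1 read's worth of the control. The log2 fold change was -0.13 (SE 0.30, adjusted p = 0.873) for UVB against control, 0.30 (SE 0.30, adjusted p = 0.587) for tumor against control and -0.42 (SE 0.24, adjusted p = 0.245) for UVB against tumor. Without tumor 1 the tumor change was -0.0034, and without tumor 2 it was 0.59. The difference between the spleens was -0.12 without tumor 1 and -0.72 without tumor 2. Over the alternatives that kept all 5 libraries the adjusted p ran from 0.569 to 0.931 for tumor against control and from 0.231 to 0.3825 for UVB against tumor.

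Itgb3 (ENSMUSG00000020689, chromosome 11, 104608000 to 104670476 on GRCm38, plus strand) also pairs with the alpha v integrin chain on other cells, macrophages among them. It had 21.02 and 19.1 CPM in UVB 1 and 2, 5.14 and 11.2 CPM in tumor 1 and 2, and 26.5 CPM in the control library. The tumor libraries were thus the lowest, with no overlap with either other group. Tumor against control gave the largest difference of any of the 5 genes, a log2 fold change of -1.67 (SE 0.47, 95% interval -2.92 to -0.41, unadjusted p = 0.0199, adjusted p = 0.135). UVB against tumor gave 1.28 (SE 0.38, 95% interval 0.26 to 2.31, adjusted p = 0.0813), and UVB against control -0.39 (SE 0.47, adjusted p = 0.737). With no filter on low genes UVB against tumor was called (adjusted p = 0.0492), as were 3347 of the 39179 genes. Without tumor 1 and without tumor 2 the change against control was -1.17 and -2.16, and UVB against tumor was 0.79 and 1.78. In those fits the spread came from the UVB pair alone, and the lone tumor library was assumed to vary like it, so no p-value of theirs is given. Over the alternatives that kept all 5 libraries the adjusted p ran from 0.05015 to 0.2095 for tumor against control and from 0.0492 to 0.1099 for UVB against tumor.

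The chains of the pair did not keep one ratio. Itgb3 made up 41.3% and 39.8% of the reads of both genes in UVB 1 and 2 (105 of 254 and 113 of 284 reads), 9.24% and 25.7% in tumor 1 and 2 (28 of 303 and 61 of 237 reads), and 45.2% in the control library (151 of 334 reads). The exact (Clopper-Pearson) 95% interval was 6.23% to 13.1% in tumor 1 and 20.3% to 31.8% in tumor 2, which overlapped neither each other nor the interval of any other library. The intervals of UVB 1 (35.2% to 47.7%), UVB 2 (34.05% to 45.7%) and the control (39.8% to 50.7%) overlapped. Macrophage markers moved in the same order as Itgb3 among the tumor libraries, with 929 CPM in tumor 1 and 1342 CPM in tumor 2. All 9 of these markers were lower in both tumor libraries than in both UVB libraries, against 34.8% of all genes tested. B cell, monocyte, endothelial and neutrophil sums were also lower in tumor 1 than in tumor 2. The control had the highest Itgb3 level (26.5 CPM), with a macrophage sum (1887 CPM) below both UVB libraries (2351 and 2097 CPM). The part of these cells in the Itgb3 difference was not tested.

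**Figure D2:**
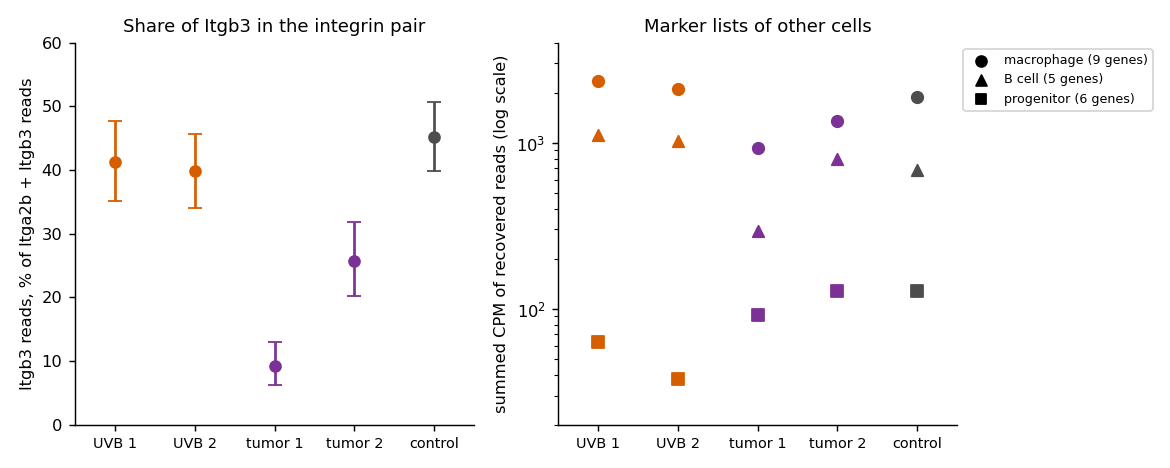
Left, Itgb3 reads as a percentage of Itga2b and Itgb3 reads in each library, with exact 95% binomial intervals that cover counting error only. Right, summed CPM of recovered reads (log scale) for macrophage, B cell and progenitor marker lists. Tumor 1 has the lowest share (9.24%) and the lowest macrophage sum (929 CPM).

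Gp1bb and Gp9 encode small subunits of the von Willebrand factor receptor, without which the complex does not reach the platelet surface. Gp9 (ENSMUSG00000030054, chromosome 6, 87778072 to 87779768 on GRCm38, plus strand), whose upstream letters with GATAA are shown above, had 16.7 and 15.6 CPM in UVB 1 and 2, 14.4 and 9.40 CPM in tumor 1 and 2, and 25.3 CPM in the control library. All 4 spleen libraries lay below the control, and the UVB libraries above both tumor libraries. The log2 fold change was -0.62 (SE 0.33, adjusted p = 0.455) for UVB against control, -1.06 (SE 0.33, unadjusted p = 0.0271, adjusted p = 0.155) for tumor against control and 0.44 (SE 0.27, adjusted p = 0.269) for UVB against tumor. Tumor against control was -1.34 without tumor 1 and -0.77 without tumor 2. UVB against tumor was 0.72 without tumor 1 and 0.16 without tumor 2. Over the alternatives that kept all 5 libraries the adjusted p ran from 0.104 to 0.253 for tumor against control and from 0.2405 to 0.4346 for UVB against tumor.

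Gp1bb (ENSMUSG00000050761, chromosome 16, 18620317 to 18622403 on GRCm38, minus strand) was close to absent and fell under the filter of 1 CPM. With no filter it was not called in any comparison. It had 2 and 1 reads in UVB 1 and 2, 5 and 5 reads in tumor 1 and 2, and 2 reads in the control library. Its reads in tumor libraries were 2.57 times those in the control at equal depth, with an exact 95% interval of 0.547 to 24.1. In GENCODE M21, 92.9% of its exon bases are shared with Sept5 or Gm49601 on the same strand, so reads of this gene may have been left uncounted or assigned to its neighbours, and its level is uncertain. Its partners in the complex were measured better. Gp1ba, the chain that binds von Willebrand factor, was at 4.36 and 7.05 CPM in UVB, 9.40 and 12.1 CPM in tumor and 9.77 CPM in control libraries. With all 5 libraries Gp1ba was not called (adjusted p = 0.462, 0.88 and 0.119 for UVB against control, tumor against control and UVB against tumor).

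Gp5, the remaining subunit and the substrate of thrombin, was at 2.18 and 1.51 CPM in UVB, 10.1 and 16.6 CPM in tumor and 6.63 CPM in control libraries. The UVB libraries were the lowest and the tumor libraries the highest for this gene. It was lower in UVB than in tumor libraries (log2 fold change -2.31, SE 0.33, adjusted p = 0.0284). With all 5 libraries neither difference from the control was called (-1.43, adjusted p = 0.222 for UVB and 0.88, adjusted p = 0.274 for tumor). Gp5 and Gp9 belong to one complex, yet the order of UVB and tumor libraries was opposite for them.

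Pf4 and Ppbp, neighbouring genes on chromosome 5, encode platelet factor 4 and the precursor of the neutrophil-attracting peptide of platelets, both among the most abundant proteins of alpha-granules. Pf4 (ENSMUSG00000029373, 90772435 to 90773383 on GRCm38, plus strand) had 2.78 and 3.02 CPM in UVB 1 and 2, 1.77 and 2.53 CPM in tumor 1 and 2, and 4.36 CPM in the control library. These values stand for 13 and 17 reads in UVB, 9 and 13 reads in tumor and 24 reads in control libraries. Every spleen library was below the control, but the counts were small and none of the differences was called (log2 fold change -0.46, SE 0.30, adjusted p = 0.537 for UVB against control, -0.78, SE 0.30, adjusted p = 0.213 for tumor against control and 0.32, SE 0.24, adjusted p = 0.368 for UVB against tumor). By recovered reads the ratio of tumor to control was 0.471 (95% interval 0.252 to 0.877) and that of UVB to control 0.652 (0.368 to 1.17).

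Ppbp (ENSMUSG00000029372, 90768518 to 90770063 on GRCm38, plus strand) varied most within a group. It had 6.74 and 1.68 CPM in UVB 1 and 2, 4.08 and 4.52 CPM in tumor 1 and 2, and 3.66 CPM in the control library. The UVB libraries (33 and 9 reads) lay on either side of the others. The log2 fold change was -0.034 (SE 0.68, adjusted p = 0.988) for UVB against control, 0.18 (SE 0.68, adjusted p = 0.895) for tumor against control and -0.22 (SE 0.56, adjusted p = 0.783) for UVB against tumor. Without UVB 2 the first was 0.73 and the third 0.55, so neither has a direction in these data. Ppbp and Pf4, stored in the same granules, did not rank the libraries alike: UVB 2 was the lowest for Ppbp and was above UVB 1 for Pf4.

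**Figure D3:**
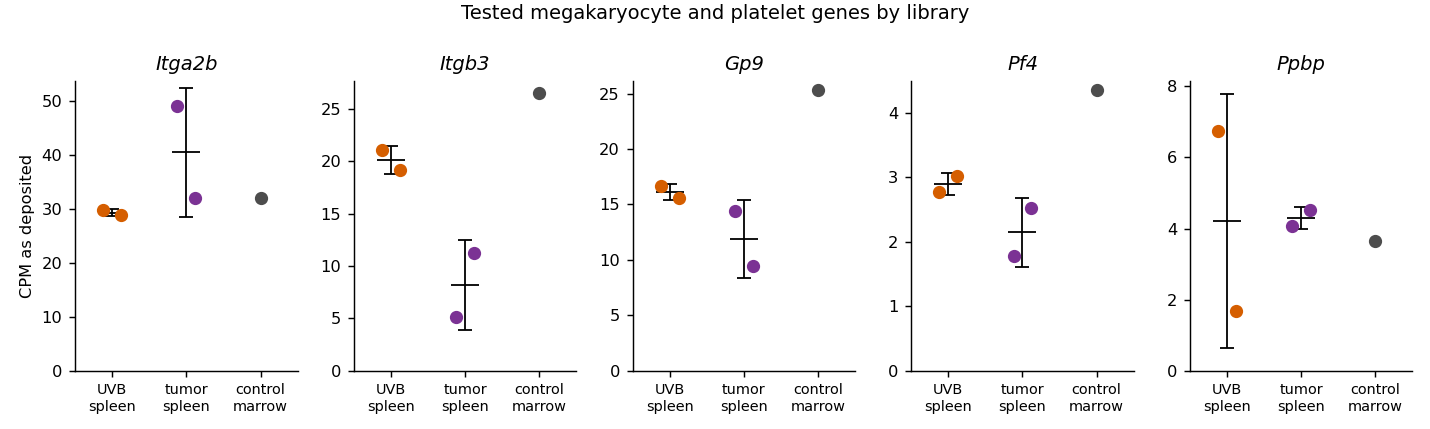
CPM as deposited for the 5 tested genes in UVB spleen, tumor spleen and control marrow libraries. Points are libraries, and the bar and whiskers are mean ± SD of n = 2. Tumor libraries are the lowest for Itgb3 (5.14 and 11.2 CPM), and the control is the highest for Itgb3, Gp9 and Pf4.

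Gp6 and Treml1 complete the group. Gp6 (ENSMUSG00000078810, chromosome 7, 4363965 to 4397744 on GRCm38, minus strand) encodes the collagen receptor glycoprotein VI, found almost only in megakaryocytes and platelets. It had 2 reads in UVB 1 and 0 in each of the other 4 libraries, where a count of 0 allows up to 0.507 CPM in UVB 2, 0.536 and 0.546 CPM in tumor 1 and 2, and 0.527 CPM in the control. Treml1 (ENSMUSG00000023993, chromosome 17, 48359916 to 48367176 on GRCm38, plus strand) encodes a receptor held in alpha-granules and moved to the surface on activation. It had 3 and 0 reads in UVB 1 and 2, 3 and 4 reads in tumor 1 and 2, and 4 reads in the control library. At these depths no difference in Gp6 or Treml1 was detectable.

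A wider list of 79 other megakaryocyte and platelet genes, in 10 role groups, gave the setting. Of the 78 with a row 73 were tested, and many are used by other blood cells too. In UVB against control, 0 were called higher, against 0.180% of all genes tested, and 5 lower, against 2.15%, with a list median log2 fold change of -0.09 (-0.061 over all genes tested). In tumor against control, 0 were called higher, against 1.20%, and 4 lower, against 2.59%, with a median of -0.29 (-0.011 over all genes). In UVB against tumor, 5 were called higher, against 4.70%, and 8 lower, against 12.3%, with a median of 0.050 (-0.015 over all genes). Without UVB 1 or without UVB 2, 0 genes of the list were called in each comparison. Without tumor 1 or without tumor 2, more genes of the list were called in each comparison, and more were called over all genes tested as well.

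The genes that fell in the spleens against marrow were granule cargo and cytoskeleton genes, and 4 of them (F13a1, Mmrn1, Mylk and Tuba8) were called in both comparisons, which share the control library. F13a1, the coagulation factor XIII A chain, which monocytes and macrophages also make, fell to 7.93 and 8.56 CPM in UVB and to 2.66 and 2.89 CPM in tumor libraries, against 50.8 CPM in the control (log2 fold change -2.49, adjusted p = 0.0321 for UVB and -3.78, adjusted p = 0.0205 for tumor). Mmrn1, a factor V carrier of platelets and endothelium, fell to 1.98 and 0.168 CPM in UVB and to 0.532 and 0.724 CPM in tumor libraries, against 58.6 CPM in the control (-5.00, adjusted p = 0.041 and -5.20, adjusted p = 0.0336). Mylk, the myosin light chain kinase, fell to 1.79 and 1.51 CPM in UVB and to 5.50 and 4.52 CPM in tumor libraries, against 23.2 CPM in the control (-3.19, adjusted p = 0.0268 and -2.01, adjusted p = 0.046). These genes were at a low level in all 4 spleen libraries without overlap with the control. Over all genes tested, both UVB libraries lay below the control for 47.9% and both tumor libraries for 37.9%. Tuba8, an alpha tubulin, had 1 read in the UVB libraries and 1 in the tumor libraries, against 26 in the control, a read ratio of 0.02 (95% interval 0.000489 to 0.122) for UVB and 0.0198 (95% interval 0.000482 to 0.12) for tumor. Sparc, a matrix protein of stromal cells and platelets, was called in UVB against control (-4.48, adjusted p = 0.0323), at 4.76 and 1.85 CPM in UVB, 21.8 and 27.1 CPM in tumor and 89.3 CPM in control libraries. In tumor against control Sparc was called with no filter, as were 2303 of the 39179 genes. With edgeR, Mmrn1 and Tuba8 were not called in either comparison and Mylk not in tumor against control (adjusted p = 0.0585). Tuba8 was under 1 CPM in every spleen library, and Mmrn1 in all but UVB 1. Both passed the filter of 1 CPM through the control library, where they were high. Genes that pass in this way can only average below the control, so the filter set the direction of their calls. With the filter raised to 5 CPM, 0 genes of the list were called in UVB against control, against 67 of 11576 genes. In tumor against control only F13a1 was called, against 70 of 11576. Stromal markers moved with the called genes of the list. They were at 1.80 to 2.53 CPM in UVB, 2.86 to 3.83 CPM in tumor and 705 CPM in control libraries. All 5 were called lower in both comparisons, against 2.15% and 2.59% of all genes tested. Among them Col1a1, Dcn and Pdgfra were under 1 CPM in every spleen library and also passed the filter through the control. Neutrophil markers (58.0 to 78.4 CPM in UVB, 40.2 to 114 CPM in tumor and 941 CPM in control libraries) had a log2 fold change below 0 for all 9 genes in both, with 2 called lower in UVB and 5 in tumor libraries. Of the 8 endothelial markers, 6 had a log2 fold change below 0 in UVB against control and all 8 in tumor against control. Esam (1.16) and Pecam1 (0.77) were above 0 in UVB. Cdh5 was at 6.34 and 4.03 CPM in UVB, 12.8 and 12.1 CPM in tumor and 28.8 CPM in control libraries. Kdr was at 3.17 and 2.01 CPM in UVB, 9.23 and 14.8 CPM in tumor and 26.3 CPM in control libraries. Ly6c2, a monocyte marker, was at 9.32 and 6.38 CPM in UVB, 1.95 and 4.16 CPM in tumor and 28.4 CPM in control libraries. F13a1 itself is on the monocyte list. Of the 5 monocyte markers, 2 were above 0 in UVB against control (Csf1r at 1.04 and Fcgr1 at 0.37). In tumor against control 1 was (Csf1r at 0.31). The part of these cells in the result was not tested.

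Between the spleens, genes of the wider list moved in both directions. Among receptors for soluble agonists, Ptger3, a prostaglandin E2 receptor, was lower in UVB (2.97 and 2.52 CPM) than in tumor libraries (23.2 and 17.2 CPM; log2 fold change -2.49, adjusted p = 0.0211), against 6.45 CPM in the control. F2r, a thrombin receptor that human but not mouse platelets rely on, was lower in UVB (13.7 and 8.39 CPM) than in tumor libraries (36.0 and 33.6 CPM; -1.61, adjusted p = 0.0341), against 12.2 CPM in the control. P2ry12, the ADP receptor that clopidogrel blocks, was higher in UVB (67.8 and 61.6 CPM) than in tumor libraries (12.8 and 26.0 CPM; 1.77, adjusted p = 0.0429), against 17.3 CPM in the control. Platelet agonist receptors thus showed no common direction.

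Genes lower in UVB than in tumor libraries also included Gata2, a transcription factor of progenitors and early megakaryocytes, at 2.38 and 1.17 CPM in UVB, 10.6 and 19.2 CPM in tumor and 8.90 CPM in control libraries (UVB against tumor -2.50, adjusted p = 0.0314). Ctla2a, an inhibitor of cysteine proteases, was at 0.595 and 0.839 CPM in UVB, 8.16 and 4.52 CPM in tumor and 2.79 CPM in control libraries (-2.05, adjusted p = 0.031). Sdpr, a protein of caveolae, was at 0.992 and 0.839 CPM in UVB, 3.55 and 5.25 CPM in tumor and 6.10 CPM in control libraries (-1.48, adjusted p = 0.0352). Also lower were Sparc (-2.65, adjusted p = 0.0292) and Mylk (-1.18, adjusted p = 0.0428). Progenitor markers, a list that holds Gata2, summed to 37.7 to 62.8 CPM in UVB and 91.3 to 127 CPM in tumor libraries. Kit made up most of these sums. Of the 5 progenitor markers tested, 3 had a log2 fold change below 0 in UVB against tumor. The other 2 were above 0 (Flt3 at 1.54 and Meis1 at 1.08). The part of progenitors was not tested. Higher in UVB than in tumor libraries was Tbxas1, thromboxane synthase, at 141 and 141 CPM in UVB, 74.7 and 80.9 CPM in tumor and 118 CPM in control libraries (0.85, adjusted p = 0.0221), as was F13a1 (1.29, adjusted p = 0.0333). Runx1, a transcription factor whose partial loss lowers platelet counts in humans, was at 126 and 137 CPM in UVB, 91.9 and 94.8 CPM in tumor and 158 CPM in control libraries (0.49, adjusted p = 0.045). Cd36, a scavenger receptor of platelets, macrophages and other cells, was at 302 and 295 CPM in UVB, 176 and 215 CPM in tumor and 248 CPM in control libraries (0.62, adjusted p = 0.0457). With the filter of 1 CPM and all 5 libraries, none of the 9 genes of collagen and podoplanin receptor signaling was called by limma or edgeR. In UVB against tumor, 6 of the 9 had an unadjusted limma p under 0.05, against 6326 of the 15006 genes tested. For 8 of the 9 the log2 fold change was above 0 (median 1.23), against 7388 of the 15006 genes. With no filter 3 of the 9 (Clec1b, Lcp2 and Vav3) were called in UVB against tumor, against 3347 of the 39179 genes. Macrophage markers were also higher in UVB (2097 to 2351 CPM) than in tumor libraries (929 and 1342 CPM), with 3 of 9 called, against 17.0% of all genes tested. Their part in these differences was not tested. P2ry12 and Cd36 are outside the naming rule and are named here as part of the 13 genes called.

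The panel genes given next were not called with the filter of 1 CPM and all 5 libraries. Clec1b, the podoplanin receptor of platelets, was at 63.7 and 58.4 CPM in UVB, 10.6 and 25.3 CPM in tumor and 13.95 CPM in control libraries, so the UVB libraries stood above all others (log2 fold change 2.05, adjusted p = 0.179 against control and 1.82, adjusted p = 0.0528 against tumor). With no filter Clec1b was called in both, as were 1813 and 3347 of the 39179 genes. Vwf, which encodes von Willebrand factor in megakaryocytes and endothelium, was at 76.5 and 110 CPM in UVB, 83.4 and 68.5 CPM in tumor and 58.1 CPM in control libraries, and its lowest adjusted p was 0.367. Tubb1, the beta tubulin of the platelet microtubule ring, was at 0.397 and 1.01 CPM in UVB, 1.60 and 1.81 CPM in tumor and 3.66 CPM in control libraries (lowest adjusted p = 0.125). Transcription factors shared with red cells were measured at over 100 CPM in every library. Gata1 was at 164 and 169 CPM in UVB, 214 and 173 CPM in tumor and 165 CPM in control libraries, Nfe2 at 234 and 240 CPM in UVB, 245 and 186 CPM in tumor and 216 CPM in control libraries, and Gfi1b at 119 and 117 CPM in UVB, 175 and 134 CPM in tumor and 119 CPM in control libraries. Fli1, an ETS factor of megakaryocytes and lymphocytes, was at 108 and 113 CPM in UVB, 25.4 and 71.4 CPM in tumor and 117 CPM in control libraries (lowest adjusted p = 0.115), and Plek, a platelet and leukocyte signaling protein gene, at 213 and 194 CPM in UVB, 55.9 and 167.5 CPM in tumor and 134 CPM in control libraries (lowest adjusted p = 0.197). The fits without tumor 1 or without tumor 2 each held 1 tumor library, and their calls on panel genes are not listed here. Fli1 and Plek were higher in tumor 2 than in tumor 1, as B cell markers were, at 295 CPM in tumor 1 and 797 CPM in tumor 2. The part of B cells in the values of Fli1 and Plek was not tested.

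**Figure D4:**
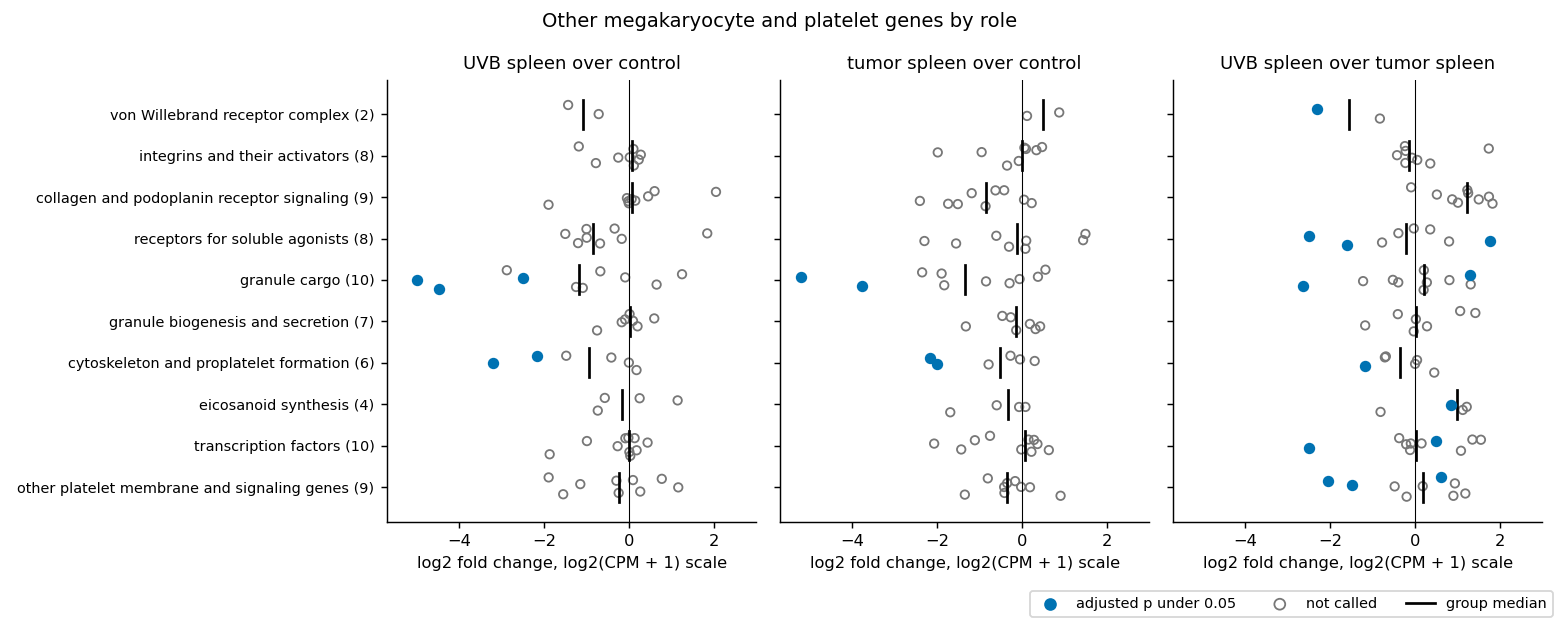
Log2 fold changes on the log2(CPM + 1) scale for the 73 tested genes of the wider list by role group (number tested in brackets), for UVB over control, tumor over control and UVB over tumor. Filled points have an adjusted p under 0.05 and vertical bars are group medians. The 5 and 4 called genes in the comparisons with control all lie below 0. Of these, Mmrn1 and Tuba8 passed the filter through the control library. The 13 called between the spleens lie on both sides.

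Genes most like the group were sought among 9771 other genes of at least 10 CPM, by the root mean square difference between centred log2(CPM + 1) values over the 5 libraries and the mean profile of the 5 tested genes. The nearest were Ankrd46 (0.054), Smug1 (0.061), Smad5 (0.062), Rala (0.066) and Ccdc84 (0.074). The distance of the 5 genes from their own mean was 0.18 for Pf4, 0.27 for Gp9, 0.45 for Itga2b, 0.49 for Ppbp and 0.59 for Itgb3. The nearest genes were picked as the smallest of all distances, so the difference from the distances of the 5 genes is no result.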

How the data were processed

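RNA from CD71-selected cells was sequenced in 5 libraries. Per the submitters' processing notes, STAR, HTSeq and the build mm10 were used; the sources read here name no versions, annotation or strand setting. Values are CPM as deposited by the authors in 2 tables with the same control library. Every value (100%, relative tolerance 1e-06) equalled a whole number of reads, and the lowest value stands for 0 reads because 1 read had been added to each gene before scaling, as the values show. Recovered reads are these numbers less 1. The authors' deposited log2 fold changes are log2 ratios of single libraries and were not used further.

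Genes averaging 1 CPM or more were tested with limma 3.58.1 (trend, R 4.3.3) on log2(CPM + 1) by a two-sided test, in a single fit of all groups with 2 residual degrees of freedom, and called at an adjusted p under 0.05. The scale understates the change of low genes. Alternatives were log2(CPM + 0.25), no filter, a mean of at least 5 CPM, edgeR 4.0.16 quasi-likelihood with TMM on recovered reads, a replicate block, and leaving out each spleen library. Read ratios have exact conditional intervals and per-library shares Clopper-Pearson intervals (95%), and the limit for a count of 0 is 3 reads. Exon lengths were taken from GENCODE M21 (GRCm38, equivalent to mm10), which held 37607 of the 39179 identifiers, and promoter sequences from RefSeq on GRCm38.p6. Of 79 listed genes of the wider list 78 were matched, and all 69 marker entries were. The 8 genes, the lists and the tests were chosen with earlier results of these data known. Named genes were the 8 genes, a panel of 12 (1 of them is not reported here), up to 2 called genes per role group and comparison by smallest p, and the 5 nearest genes, and others were named after their values were seen.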

Additional observations from a re-analysis of the deposited data

How the results depend on the processing

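Over the whole table, limma called 349 genes in UVB against control, 569 in tumor against control and 2557 in UVB against tumor. With log2(CPM + 0.25) the counts against control were 101 and 232, with no filter 1813 and 2303, with genes averaging 5 CPM or more 67 and 70, and with edgeR 116 and 192 (2008 in UVB against tumor). In the wider list the counts of 5 and 4 against control became 1 and 1, 8 and 10, 0 and 1, and 3 and 1 in the same order of settings. With no filter 1 of the 8 genes, Itgb3, was called in UVB against tumor, against 3347 of the 39179 genes. Leaving out 1 library gave 0 to 3147, 0 to 5445 and 0 to 7900 genes over the table, 0 to 27, 0 to 41 and 0 to 44 in the wider list, and 0, 0 to 3 and 0 to 2 of the 8 genes, with 0 wherever a UVB library was left out, where 1110 to 2681 genes had an unadjusted p under 0.05. The replicate numbers of the spleen libraries are not said to mark a shared litter or day, and the deviations of same-numbered libraries correlated at -0.11 across genes. With the replicate block, which leaves 1 residual degree of freedom, limma called 0 genes in each comparison (1804, 2808 and 5511 at an unadjusted p under 0.05). Ppbp changed direction in UVB against control with edgeR (0.22) and over fits with 1 library left out (-0.80 to 0.73), as it did in UVB against tumor (-0.98 to 0.55), and Itga2b in tumor against control ranged from -0.0034 to 0.59. Except for these, each direction of the 5 tested genes was kept under the alternatives tried. The cause of these changes was not tested. Low counts limit Gp1bb, Gp6 and Treml1, which had at most 5 reads in any library. Gp1bb also shares 92.9% of its exon bases with other genes on the same strand.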
